A study of Homo sapiens with 12 samples.

Results

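Sterol regulatory element-binding proteins (SREBPs) are the transcription factors that set how much cholesterol and fatty acid a cell makes, and 35 genes of this system were followed here in a human kidney cell line exposed to a compound called Ra. The list holds 5 regulators (SREBF1, SREBF2, SCAP, INSIG1 and INSIG2), 19 genes of sterol synthesis and transport and 11 genes of fatty acid and glycerolipid synthesis. Of these, 31 had a probe set annotated to exactly 1 gene symbol, and 30 passed the filter on low signal, among 10049 genes tested: all 5 regulators, 17 of the sterol branch and 8 of the fatty acid branch. CYP51A1 and FADS1 had only probe sets with several symbols, no probe set was listed for FDFT1 or ACSL3, and FADS2 stood near background at 3.41 to 3.51 log2 units on the 12 arrays. These 5 genes were not analysed further.

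The samples were HK-2 cells, an immortalised line of human proximal tubule epithelium, grown in a defined medium that holds insulin, EGF and hydrocortisone. There were 4 groups of 3 samples: cells given Ra for 12 h, cells given the control vehicle for 12 h, cells given Ra for 48 h and cells given the control vehicle for 48 h. The labels call the samples of a group biological replicates and give no dose for Ra, and nothing states whether they were separate cultures grown on different days, so p-values measure the spread between these samples. Total RNA was measured on Affymetrix 3′ arrays, and all values below are GCRMA log2 expression values, on which 1 unit is a factor of 2. A level of one gene cannot be set against that of another on this scale, and in RNA from whole cultures fewer cells and less RNA per cell cannot be told apart.

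SREBPs are made as membrane proteins of the endoplasmic reticulum. When membrane sterols are low, the escort protein SCAP carries them to the Golgi, where they are cut and released to the nucleus. When sterols are high, INSIG proteins hold SCAP back. SREBP-2, from SREBF2, acts mainly on cholesterol synthesis, and SREBP-1, from SREBF1, acts mainly on fatty acid synthesis. Several of the target genes, INSIG1 among them, are known to follow SREBP activity closely, and the targets often bind SREBP together with the factor NF-Y, which reads CCAAT boxes.

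Promoter windows from RefSeq (GRCh38.p14, 250 bases before to 50 after each start) were available for 31 of the 35 genes, 44 windows in all. They were searched on both strands for a sterol regulatory element (TCACNCCAC), the CCAAT box (CCAAT) and a GC box (GGGCGG), and overlapping matches were each counted. The first was in 1 of the 31 genes (3.23%) and in 1.39% of 27305 genes with windows. CCAAT was in 23 of 31 (74.2%), against 39.7% of all such genes: 14 of 16 of the sterol branch, 7 of 10 of the fatty acid branch and 2 of 5 regulators. GGGCGG was in 29 of 31 (93.5%), against 48.3%. These letters describe the windows and do not show binding. Printed here, with the sterol regulatory element and every CCAAT (or its complement ATTGG) in capitals, are the window with that element, SREBF2 at chr22:41832855-41833154, and those of the genes with the clearest differences below: NSDHL at chrX:152830813-152831112, HSD17B7 at chr1:162790452-162790751 and EBP at chrX:48521558-48521857, all on the plus strand.
SREBF2: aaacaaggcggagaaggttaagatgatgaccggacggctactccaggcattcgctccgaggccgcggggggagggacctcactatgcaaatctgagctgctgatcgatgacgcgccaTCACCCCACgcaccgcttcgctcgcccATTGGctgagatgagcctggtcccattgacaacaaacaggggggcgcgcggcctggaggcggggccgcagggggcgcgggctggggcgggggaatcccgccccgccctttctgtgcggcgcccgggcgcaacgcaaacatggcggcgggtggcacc
NSDHL: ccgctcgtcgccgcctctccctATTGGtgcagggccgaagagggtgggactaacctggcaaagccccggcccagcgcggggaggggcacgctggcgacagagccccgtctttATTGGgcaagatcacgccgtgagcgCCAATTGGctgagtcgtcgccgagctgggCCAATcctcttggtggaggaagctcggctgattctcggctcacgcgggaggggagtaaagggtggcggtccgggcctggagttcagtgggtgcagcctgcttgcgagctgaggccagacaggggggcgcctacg
HSD17B7: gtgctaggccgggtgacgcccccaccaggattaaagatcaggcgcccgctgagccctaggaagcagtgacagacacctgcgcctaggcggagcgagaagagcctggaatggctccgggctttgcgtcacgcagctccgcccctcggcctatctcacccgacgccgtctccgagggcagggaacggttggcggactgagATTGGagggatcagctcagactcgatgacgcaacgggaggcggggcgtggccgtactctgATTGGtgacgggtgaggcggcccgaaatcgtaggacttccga
EBP: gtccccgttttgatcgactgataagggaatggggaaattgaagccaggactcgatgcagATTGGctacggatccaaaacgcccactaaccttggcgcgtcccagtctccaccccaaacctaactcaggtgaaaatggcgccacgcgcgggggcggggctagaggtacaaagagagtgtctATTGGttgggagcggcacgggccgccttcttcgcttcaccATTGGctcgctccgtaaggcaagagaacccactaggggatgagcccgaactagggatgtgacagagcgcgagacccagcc
The element in SREBF2 begins 133 bases before the start, and the NSDHL window holds 5 CCAAT matches, EBP 3 and HSD17B7 2.

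Before the genes are described, the arrays themselves differed. The median of the 10049 genes was 7.95 on Ra 48 h replicate 2, against 8.66 to 8.79 on the other 11 arrays, and 94.4% of genes were lower there than the mean of the other Ra 48 h arrays. The typical replicate SD of a gene was 0.12 in both 12 h groups, 0.43 in Ra cells at 48 h and 0.22 in control cells at 48 h, so each group was given its own variance weight. Epithelial keratins were high in all groups (KRT18 averaged 13.30 in Ra and 13.26 in control cells at 12 h; at 48 h it averaged 12.97 in Ra and 12.92 in control cells). Of 14 kidney epithelium and proximal tubule markers 6 passed the filter, PAX8, KRT8, KRT18, CDH2, CDH6 and CDH16. LRP2, CUBN, AQP1 and SLC34A1, which define mature proximal tubule, lay between 2.10 and 3.27 in every group mean, under the filter. Of the markers of other cells, COL1A1, DCN (fibroblast) and PODXL (podocyte) passed it, and none of the endothelial, immune or distal nephron markers did.

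At 12 h, few genes of this system differed between Ra and control cells beyond the replicate spread. That spread was wider for the 30 genes than for all genes, so a difference of a given size was harder to call. With limma's test over all 10049 genes, 1 of the 30 passed an adjusted p of 0.05, NSDHL, while 1792 of all genes did (17.8%), 989 higher and 803 lower. The median difference between Ra and control cells was -0.07 for the 30 genes, -0.11 for the sterol branch, -0.05 for the fatty acid branch and 0.14 for the regulators, beside 0.01 for all genes. Differences below 0 were found in 18 of the 30, 12 of 17 in the sterol branch, 5 of 8 in the fatty acid branch and 1 of 5 regulators, against 48.1% of all genes. The groups' arrays did not overlap for 2 of the 30 genes, NSDHL and EBP, both lower, against 35.3% of all genes.

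**Figure D1:**
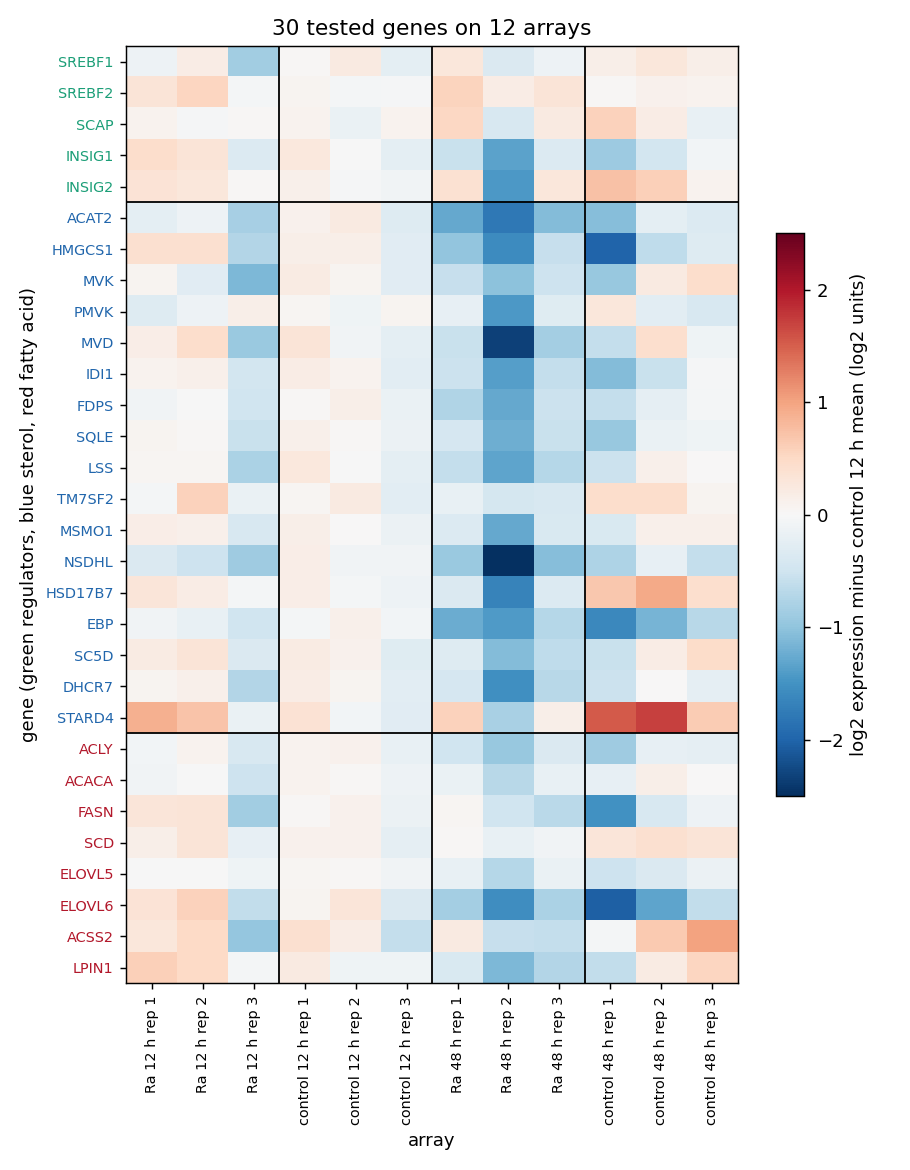
Each cell of the map is the log2 expression of 1 of the 30 tested genes (down the page, in 3 branches) on 1 of the 12 arrays (across), minus that gene's mean in control cells at 12 h; blue is lower and red higher. Replicate 3 of both 12 h groups, replicate 2 of Ra at 48 h and replicate 1 of control at 48 h appear as mostly blue columns. Low values at 48 h are not confined to these. On replicates 1 and 3 of Ra at 48 h the sterol genes averaged -0.54 and -0.58, and the fatty acid genes -0.22 and -0.45.

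Among the regulators no gene passed at 12 h. SREBF2 stood at 8.84, 9.06 and 8.48 in Ra cells and at 8.59, 8.47 and 8.50 in control cells (difference 0.27 ± 0.12 SE, limma adjusted p = 0.156). The lowest Ra array lay within the control arrays. SREBF1 stood at 7.50, 7.80 and 6.75 in Ra cells and at 7.64, 7.84 and 7.38 in control cells (-0.27 ± 0.21). Its low Ra value came from replicate 3. The escort SCAP had 8.30, 8.17 and 8.23 in Ra cells and 8.28, 8.03 and 8.29 in control cells. INSIG1 had 12.55, 12.45 and 11.79 in Ra cells and 12.38, 12.10 and 11.88 in control cells, and INSIG2, its relative, 8.36, 8.31 and 8.05 in Ra cells and 8.15, 7.99 and 7.94 in control cells. In all these genes the groups overlapped, and INSIG1 was lowest in replicate 3 of both groups.

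The gene that changed, NSDHL, encodes the dehydrogenase that helps remove the C4 methyl groups of sterol intermediates. Its values were 9.94, 9.78 and 9.40 in Ra cells and 10.47, 10.21 and 10.21 in control cells. Every Ra array lay below every control array, and NSDHL fell by 0.59 on the log2 scale (SE 0.16, 1.51-fold, limma adjusted p = 0.0233). Its second probe set differed by -0.26. The call did not hold with the mean of its probe sets (adjusted p = 0.0508), without cross-hybridising probe set types (0.196), with no filter (0.0879), with 1 spread for all groups (0.771), or without Ra 12 h replicate 2 (0.0613) or control 12 h replicate 1 (0.111).

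The replicate numbers were taken as pairs at 12 h because same-numbered arrays deviated together, though the labels do not state a pairing. With the number as a block 6 of the 30 genes passed, all in the sterol branch: 5 lower, against 11.9% of all genes lower, and 1 higher, against 14.8% higher. That fit held all 12 arrays with 1 variance weight per time. The 48 h arrays were thus blocked by number too, and their spread entered the test at 12 h. ACAT2, the cytosolic thiolase that joins acetyl-CoA units, had 12.48, 12.59 and 11.88 in Ra cells and 12.82, 12.93 and 12.38 in control cells. Ra was lower in each numbered pair, and ACAT2 fell by 0.40 (SE 0.08 with the block, adjusted p = 0.00367; 0.16 without it). MVK, mevalonate kinase, had 8.46, 8.10 and 7.26 in Ra cells and 8.59, 8.45 and 8.11 in control cells. It was lower in each pair and fell by 0.44 (SE 0.14 with the block, adjusted p = 0.0416; 0.277 without it).

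FDPS, which makes farnesyl diphosphate, had 13.53, 13.60 and 13.12 in Ra cells and 13.64, 13.75 and 13.44 in control cells, and fell by 0.19 with the block (adjusted p = 0.038; 0.301 without it). EBP, the sterol isomerase, had 12.42, 12.33 and 12.01 in Ra cells and 12.46, 12.62 and 12.43 in control cells, and fell by 0.25 with the block (adjusted p = 0.0294; 0.194 without it). NSDHL had an adjusted p of 0.00699 with the block. The gene that rose was STARD4, a cytosolic carrier of cholesterol rather than an enzyme of its synthesis: it had 10.59, 10.41 and 9.54 in Ra cells and 10.06, 9.63 and 9.41 in control cells (0.48 ± 0.13 SE with the block, adjusted p = 0.0209; 0.211 without it). In a blocked fit of the 6 arrays of 12 h alone, NSDHL, ACAT2, FDPS and STARD4 passed, and EBP (adjusted p = 0.0501) and MVK (0.0627) did not. These were 4 of the 30 genes passing, against 2354 of all 10049 genes.

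**Figure D2:**
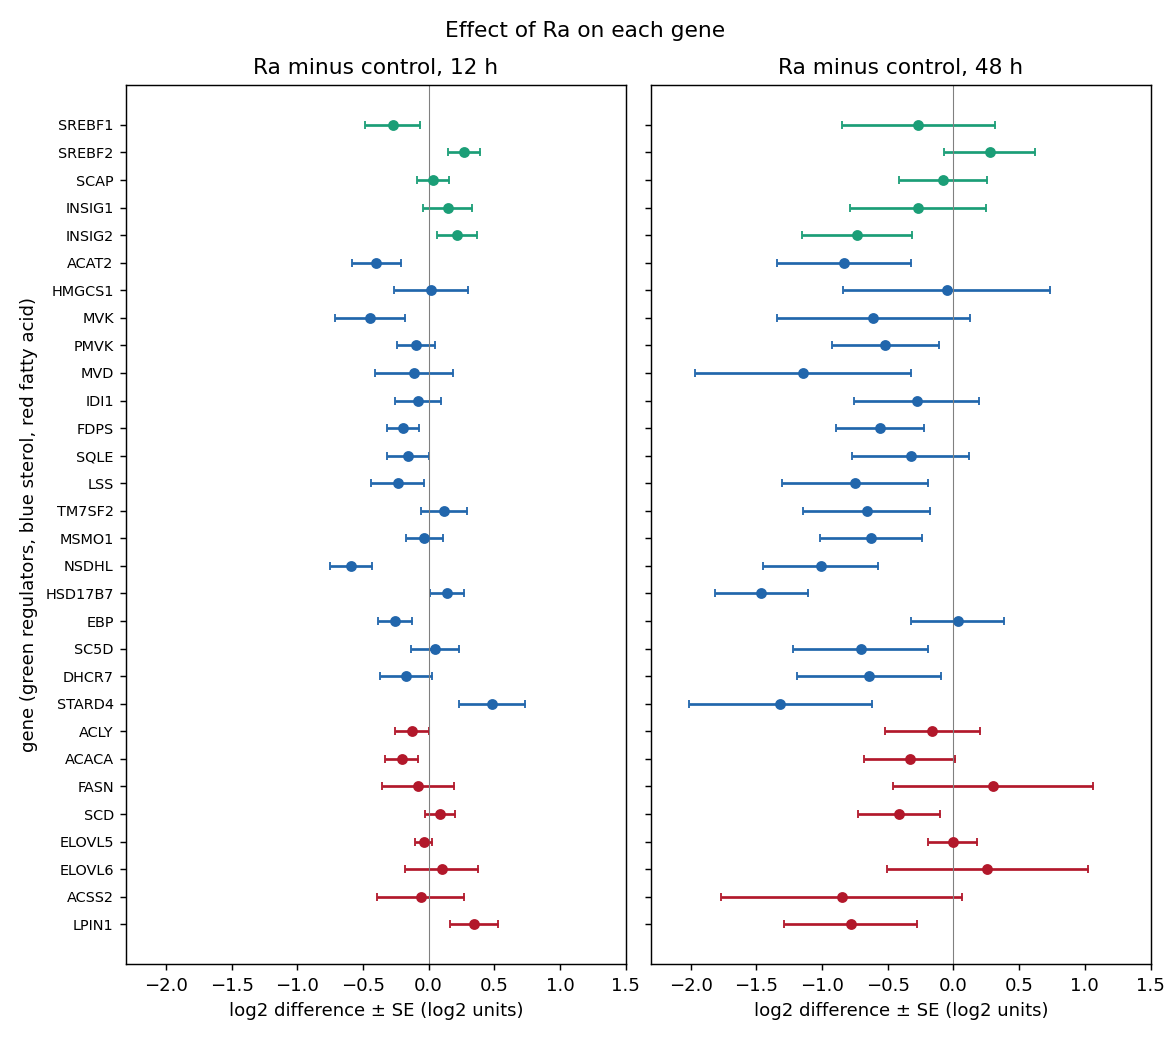
Points are the log2 difference of Ra minus control for each of the 30 genes and bars are 1 SE from the limma fit without the block, at 12 h (left) and at 48 h (right). The 12 h differences lie between -0.59 and 0.48, and the 48 h differences between -1.46 and 0.30 with wider bars.

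The rest of the sterol branch did not pass at 12 h in either fit. HMGCS1, which makes HMG-CoA, had 12.20, 12.20 and 11.07 in Ra cells and 11.95, 11.94 and 11.52 in control cells, a difference of 0.02 ± 0.29 (SE); its other probe set gave -0.28. PMVK, MVD and IDI1, which carry mevalonate on to isopentenyl units, differed by -0.10, -0.11 and -0.08. SQLE and LSS, which form the sterol ring, differed by -0.15 and -0.24. Among the enzymes that trim the ring, TM7SF2 differed by 0.12, MSMO1 by -0.03, HSD17B7 by 0.14, SC5D by 0.05 and DHCR7 by -0.17. Each of these differences was smaller than 1.5 times its SE.

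No gene of the fatty acid branch passed at 12 h in either fit. LPIN1, a phosphatidate phosphatase of glycerolipid synthesis, had 10.44, 10.33 and 9.78 in Ra cells and 10.05, 9.73 and 9.72 in control cells (0.35 ± 0.18 SE, adjusted p = 0.213; 0.0521 with the block). Its other probe sets gave -0.01 and 0.37. ACACA, which makes malonyl-CoA, had 9.60, 9.69 and 9.17 in Ra cells and 9.78, 9.72 and 9.57 in control cells. ACLY, which supplies cytosolic acetyl-CoA, had 13.00, 13.15 and 12.66 in Ra cells and 13.15, 13.17 and 12.87 in control cells. The groups overlapped in these 3 genes. The differences of FASN, the fatty acid synthase, of SCD, the stearoyl-CoA desaturase, of the elongases ELOVL5 and ELOVL6, and of ACSS2, which activates acetate, lay between -0.08 and 0.10. These are values of the brightest probe set of each gene. Other probe sets past the filter gave 0.30, 0.44 and 0.41 for SCD, -0.03 and -0.54 for ELOVL6 and -0.001 for ELOVL5.

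Replicate 3 of each 12 h group was low for this system as a whole. Set against the mean of replicates 1 and 2, 28 of the 30 genes (93.3%) were lower on replicate 3 in Ra cells and also in control cells, while 26.4% of all genes were: 16 of 17 in the sterol branch, 8 of 8 in the fatty acid branch and 4 of 5 regulators. The median gap was -0.58 in Ra cells and -0.31 in control cells for the 30 genes, and -0.01 in Ra cells and 0.04 in control cells for all genes. In Ra cells the gap ran from -1.37 for ACSS2 to 0.37 for PMVK. The labels name no batch, and what sets replicate 3 apart was not tested. Within the third pair the sterol branch mean was 0.33 lower and the fatty acid branch mean 0.24 lower in Ra cells than in control cells, whereas Ra minus control was -0.08 and 0.06 for the sterol branch in the first and second pairs and 0.06 and 0.19 for the fatty acid branch. Without Ra 12 h replicate 3, 4 of the 30 genes passed, against 22.5% of all genes: NSDHL, which fell by 0.44, and SREBF2 (0.43), STARD4 (0.80) and LPIN1 (0.55), which rose. That fit kept control 12 h replicate 3, which lowers the control means and so makes a rise larger and a fall smaller. Its gap to the other control 12 h arrays was -0.13 for NSDHL, -0.03 for SREBF2, -0.44 for STARD4 and -0.17 for LPIN1.

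**Figure D3:**
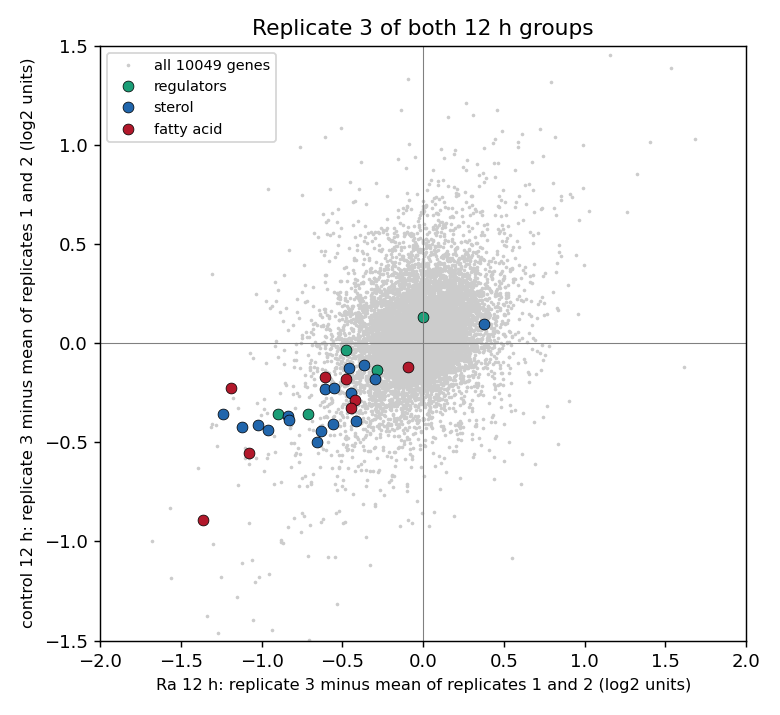
Each point is a gene, placed by its log2 value on replicate 3 minus the mean of replicates 1 and 2 in Ra cells at 12 h (horizontal) and in control cells at 12 h (vertical), with the 30 genes coloured by branch over all 10049 genes in grey. Of the 30, 28 lie at the lower left, below 0 on both axes; 6 of all genes fall outside the axes.

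At 48 h no gene of the system, and 0% of all genes, passed the test that gives each group its own spread; 1729 of all genes and 2 of the 30 had an unadjusted p under 0.05, and with 1 spread for all groups 1262 genes passed. The differences themselves were mostly below 0: 26 of the 30, with 16 of 17 in the sterol branch, 6 of 8 in the fatty acid branch and 4 of 5 regulators, against 67.1% of all genes. The median difference was -0.54 for the 30 genes, -0.64 for the sterol branch, -0.25 for the fatty acid branch and -0.27 for the regulators, beside -0.20 for all genes. The low array bears on these values. Without Ra 48 h replicate 2 the medians were -0.24 for the 30 genes, -0.45 for the sterol branch, -0.08 for the fatty acid branch, 0.03 for the regulators and 0.01 for all genes, and 15 of 17 sterol genes, 4 of 8 fatty acid genes, 2 of 5 regulators and 4920 of all 10049 genes were below 0. The arrays of the groups did not overlap, with Ra lower, in 7 of the 30 genes (ACAT2, LSS, TM7SF2, NSDHL, HSD17B7, STARD4 and SCD), against 18.6% of all genes. With Ra higher they did not overlap in 1 of the 30, SREBF2. The share of all genes in that direction was not counted, so nothing is read from it.

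HSD17B7, a 3-ketosteroid reductase of late cholesterol synthesis, had the lowest adjusted p of the 30 genes at 48 h. It stood at 10.37, 9.07 and 10.40 in Ra cells and at 11.40, 11.67 and 11.15 in control cells. Every Ra array was below every control array, and the difference was -1.46 ± 0.35 (SE, 2.76-fold, limma adjusted p = 0.126). Without the low Ra 48 h replicate 2 HSD17B7 fell by 1.02 (SE 0.21, 2.03-fold, adjusted p = 0.0297), the only one of the 30 genes to pass, against 2.08% of all genes lower. It passed also with arrays centred on their medians (-1.21, adjusted p = 0.0102), after quantile normalization (-1.23, 0.00993), with 1 spread for all groups (0.0148) and without control 48 h replicate 3 (0.0261). It passed in only 6 of 21 alternatives, which include 2 of the 12 fits that left out an array. In the others the adjusted p was up to 0.707. Its only probe set with 1 symbol is of a cross-hybridising type and RefSeq lists pseudogenes HSD17B7P1 and HSD17B7P2, so how much of the signal is HSD17B7 is uncertain.

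STARD4 had 10.28, 8.89 and 9.84 in Ra cells and 11.23, 11.41 and 10.33 in control cells, a difference of -1.32 ± 0.70 (SE, adjusted p = 0.342). The highest Ra array lay just below the lowest control array. With 1 spread for all groups both HSD17B7 and STARD4 passed (STARD4 adjusted p = 0.045), against 9.56% of all genes lower. MVD, the decarboxylase that ends the mevalonate steps, had 6.45, 4.68 and 6.16 in Ra cells and 6.41, 7.43 and 6.90 in control cells (-1.15 ± 0.82). Its groups overlapped, and its Ra 48 h replicate 2 value lay under the filter level of 5. NSDHL had 9.37, 7.69 and 9.23 in Ra cells and 9.53, 10.08 and 9.70 in control cells (-1.01 ± 0.44, adjusted p = 0.26).

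The other sterol genes at 48 h spread from -0.84 for ACAT2 to 0.03 for EBP. Other EBP probe sets past the filter gave -0.16 and -0.43. ACAT2 had 11.44, 10.92 and 11.62 in Ra cells and 11.66, 12.47 and 12.37 in control cells. TM7SF2, a sterol reductase, had 7.51, 7.24 and 7.28 in Ra cells and 8.14, 8.13 and 7.75 in control cells (-0.66 ± 0.48). In TM7SF2 the Ra replicate 2 array lay close to the other Ra arrays. The differences of LSS (-0.75), SC5D (-0.71), DHCR7 (-0.64), MSMO1 (-0.63), MVK (-0.61), FDPS (-0.56) and PMVK (-0.52) were near the branch median, and those of SQLE (-0.33), IDI1 (-0.28) and HMGCS1 (-0.05) were smaller. The other HMGCS1 probe set gave -0.70. Further probe sets past the filter gave -1.12 and -1.21 for LSS, -0.77 for NSDHL and -0.62 for DHCR7. They gave -0.51 and -0.61 for MVK, -0.40, -0.64 and -0.15 for SQLE and -0.26 for IDI1. The LSS probe set with -1.21 averaged 4.47 in Ra cells, under the filter level of 5.

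In the fatty acid branch at 48 h, ACSS2 had 10.72, 9.91 and 9.89 in Ra cells and 10.44, 11.15 and 11.49 in control cells (-0.85 ± 0.92). LPIN1 had 9.46, 8.71 and 9.11 in Ra cells and 9.22, 10.04 and 10.36 in control cells (-0.78 ± 0.51). The groups overlapped in both genes. SCD had 14.06, 13.85 and 13.95 in Ra cells and 14.33, 14.44 and 14.35 in control cells (-0.42 ± 0.31), with all Ra arrays below all control arrays. FASN (0.30 ± 0.76) and ELOVL6 (0.26 ± 0.77) had differences above 0, and ACLY (-0.16), ACACA (-0.33) and ELOVL5 (-0.01) lay between. Past the filter, further probe sets gave -0.97 and -1.66 for LPIN1 and -0.40, -0.69 and -0.59 for SCD. They gave 0.18 and 0.42 for ELOVL6, -0.33 for ELOVL5, -0.19 for ACACA and -0.08 and -0.13 for ACLY. The LPIN1 probe set with -1.66 averaged 4.98 in Ra cells, under the filter level of 5.

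Of the regulators at 48 h, SREBF2 had 9.08, 8.70 and 8.84 in Ra cells and 8.55, 8.64 and 8.61 in control cells (0.27 ± 0.34, adjusted p = 0.709). It was above the control arrays even on the low Ra array. A second SREBF2 probe set gave 0.27 at 12 h and 0.14 at 48 h, and the dimmest gave the opposite sign, -0.22 at 12 h and -0.39 at 48 h. INSIG2 had 8.42, 6.58 and 8.31 in Ra cells and 8.77, 8.62 and 8.12 in control cells (-0.73 ± 0.42), a gap that came mainly from Ra replicate 2. INSIG1 had 11.57, 10.77 and 11.78 in Ra cells and 11.22, 11.67 and 12.05 in control cells. SREBF1 had 7.90, 7.27 and 7.49 in Ra cells and 7.77, 7.91 and 7.78 in control cells, and SCAP 8.72, 7.79 and 8.42 in Ra cells and 8.78, 8.38 and 8.02 in control cells. The groups overlapped in these 3 genes.

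The branch means were also followed by array. Relative to control cells at 12 h, the mean of the 17 sterol genes was 0.08, 0.11 and -0.53 in Ra cells and 0.16, 0.05 and -0.20 in control cells at 12 h. At 48 h it was -0.54, -1.42 and -0.58 in Ra cells and -0.51, 0.04 and -0.04 in control cells. All 3 Ra arrays were below all control arrays at 48 h, but control replicate 1 came within 0.03 of the nearest Ra array. The mean of the 8 fatty acid genes was -0.22, -0.79 and -0.45 in Ra cells at 48 h and -0.69, -0.11 and 0.09 in control cells at 48 h, so these groups overlapped. At 12 h it was 0.19, 0.29 and -0.47 in Ra cells and 0.13, 0.10 and -0.23 in control cells. The 5 regulators averaged 0.24, -0.67 and 0.07 in Ra cells and 0.12, 0.15 and 0.02 in control cells at 48 h.

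The gap between the branches varied less than their levels. The sterol mean minus the fatty acid mean was -0.45, -0.51 and -0.39 in Ra cells and -0.31, -0.38 and -0.31 in control cells at 12 h, without overlap. The margin was narrow, with Ra replicate 3 at -0.394 and control replicate 2 at -0.383. At 48 h the gap was -0.65, -0.97 and -0.46 in Ra cells and -0.15, -0.18 and -0.47 in control cells, where control replicate 3 lay within the Ra arrays. No p is given for these means, since the genes were chosen with results of these data known.

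**Figure D4:**
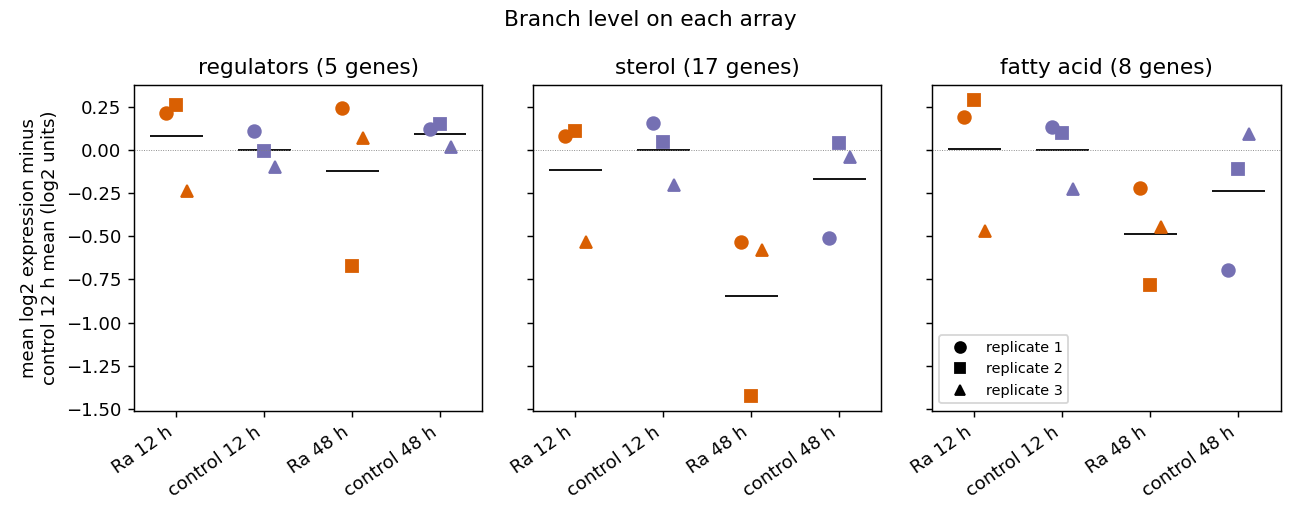
Each symbol is 1 array: the mean log2 expression of the genes of a branch minus the mean of control cells at 12 h, with the replicate number as symbol and the group mean as a line. In the sterol panel the Ra 48 h arrays stand at -0.54, -1.42 and -0.58, and control 48 h replicate 1 stands at -0.51 beside them.

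A change of the Ra effect with time was tested as the 48 h effect minus the 12 h effect. No gene of the system passed, against 7 of all genes (0.0697%). HSD17B7 had a difference of effects of -1.60 ± 0.38 (SE, adjusted p = 0.107) and STARD4 of -1.80 ± 0.74 (adjusted p = 0.227). For HSD17B7 the difference passed without Ra 48 h replicate 2 or control 48 h replicate 3 and with arrays centred (-1.34, adjusted p = 0.0123). Of all genes 923 passed with arrays centred and 754 without control 48 h replicate 3. HSD17B7 passed in 5 of 19 alternatives, and in the others the adjusted p was up to 0.625. LPIN1 (-1.13 ± 0.54), MVD (-1.04 ± 0.88) and INSIG2 (-0.95 ± 0.44) came next in size, and EBP had 0.29 ± 0.38.

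Control cells themselves changed between the times: 36.7% of all genes passed, 18.2% higher and 18.5% lower at 48 h than at 12 h. Of the 30 genes 2 rose and 3 fell. STARD4 had 11.23, 11.41 and 10.33 in control cells at 48 h and 10.06, 9.63 and 9.41 at 12 h, and rose by 1.29 (SE 0.37, 2.45-fold, limma adjusted p = 0.0162). HSD17B7 had 11.40, 11.67 and 11.15 in control cells at 48 h and 10.89, 10.69 and 10.61 at 12 h, and rose by 0.68 (SE 0.19, adjusted p = 0.0134). These genes had the 2 largest differences of the 30 between Ra and control cells at 48 h, and the same 48 h control arrays enter both comparisons. Their Ra arrays at 48 h stood at 10.28, 8.89 and 9.84 for STARD4 and at 10.37, 9.07 and 10.40 for HSD17B7, beside the 12 h control values above.

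EBP had 10.89, 11.34 and 11.81 in control cells at 48 h and 12.46, 12.62 and 12.43 at 12 h, and fell by 1.16 (SE 0.19, 2.23-fold, adjusted p = 0.000628). In Ra cells at 48 h EBP stood at 11.26, 11.10 and 11.79, among the control values of that time or close to them. ELOVL6, the elongase of saturated chains, had 7.41, 8.13 and 8.83 in control cells at 48 h and 9.52, 9.74 and 9.08 at 12 h, and fell by 1.32 (SE 0.41, 2.50-fold, adjusted p = 0.023). ELOVL5, which lengthens polyunsaturated chains, fell by 0.35 (SE 0.10, adjusted p = 0.0167), with 12.53, 12.68 and 12.89 in control cells at 48 h and 13.10, 13.07 and 12.96 at 12 h.

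The calls over time rest on few arrays. Without control 48 h replicate 2, STARD4 and HSD17B7 (adjusted p = 0.187 each), ELOVL5 (0.136) and ELOVL6 (0.149) did not pass. Without control 48 h replicate 1, STARD4 (0.0722), ELOVL5 (0.109) and ELOVL6 (0.138) did not. EBP passed in all 12 fits that left out an array. ELOVL5 did not pass with its probe sets averaged (-0.13, adjusted p = 0.385) or with 1 spread for all groups (0.12), nor did HSD17B7 with 1 spread (0.129), or ELOVL6 with no filter (0.0596) or without control 12 h replicate 2 (0.0512). Control 48 h replicate 1 was lower than the mean of the other control 48 h arrays in 25 of the 30 genes, with a median gap of -0.56, against 47.1% of all genes and a median of 0.02. Replicate 1 was the lowest for HMGCS1, which had 9.80, 11.16 and 11.49 in control cells at 48 h and 11.95, 11.94 and 11.52 at 12 h (-0.99 ± 0.42, adjusted p = 0.0829).

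**Figure D5:**
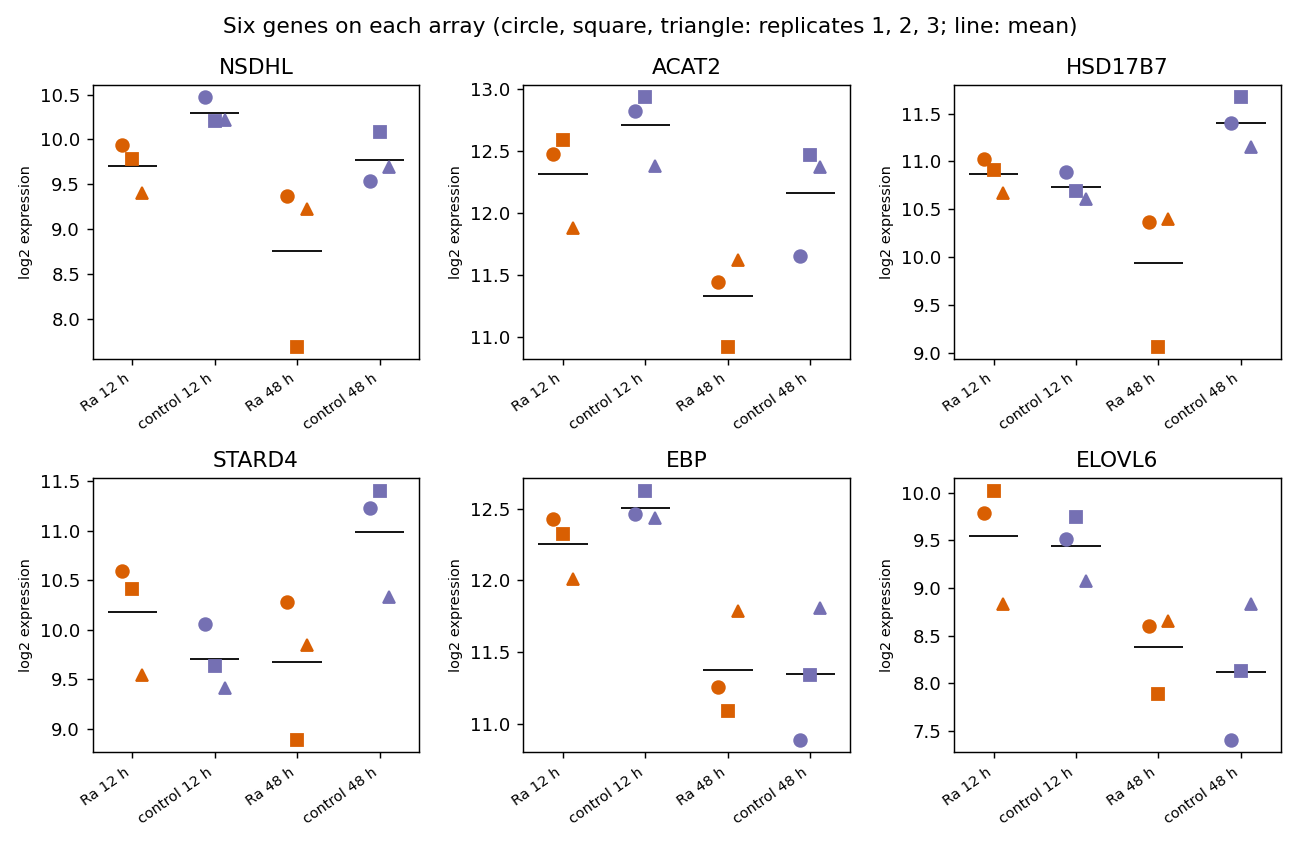
Log2 expression (vertical) of NSDHL, ACAT2, HSD17B7, STARD4, EBP and ELOVL6 on each array, by group (horizontal), with circles, squares and triangles for replicates 1, 2 and 3 and a line at the group mean. HSD17B7 in Ra cells at 48 h lies at 9.07 to 10.40, below control cells at 48 h at 11.15 to 11.67, and EBP in both 48 h groups lies below both 12 h groups.

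Genes around the system were counted from lists chosen for their function. Of 14 tested genes of sterol handling and the oxysterol receptor LXR, 3 rose at 12 h with Ra and none fell, against 9.84% of all genes higher and 7.99% lower: NR1H3, which encodes LXR alpha (6.30 in Ra and 5.69 in control cells, 0.61 ± 0.12 SE, adjusted p = 0.00656), NPC1, the lysosomal cholesterol exporter (11.66 in Ra and 11.06 in control cells, 0.60 ± 0.16, adjusted p = 0.0199), and MBTPS1, the first protease that cuts SREBPs (10.10 in Ra and 9.70 in control cells, 0.40 ± 0.09, adjusted p = 0.0105). With the block NPC2, NPC1's partner, rose too (0.23, adjusted p = 0.021). ABCA1, an LXR target that exports cholesterol, differed by 0.20 ± 0.08 (adjusted p = 0.122). The list's median was 0.18, beside 0.01 for all genes. Of 9 genes of the isoprenoid side branches 1 fell, against the same 7.99%: PDSS2, a subunit of the enzyme that makes the coenzyme Q side chain (5.85 in Ra and 6.46 in control cells, -0.61 ± 0.15, adjusted p = 0.0154), and with the block PDSS1, its other subunit (-0.60, adjusted p = 0.0188), and RABGGTB (-0.30, 0.0408) fell too, against 11.9% of all genes lower with the block.

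Of 18 other genes of fatty acid and glycerolipid synthesis and of 15 genes of fatty acid oxidation, none passed at 12 h without the block. With it 3 of each rose, against 14.8% of all genes higher: ACSL4 (0.53), AGPAT1 (0.44) and TECR (0.33), and PDK4 (0.60), CPT1A (0.31) and HADH (0.29). At 48 h no gene of these 4 lists passed, with medians of 0.12 for sterol handling, -0.48 for isoprenoids, -0.22 for the other lipid synthesis genes and -0.16 for oxidation, beside -0.20 for all genes. The control genes GAPDH and ACTB differed by 0.05 and -0.07 at 12 h and by -0.04 and 0.07 at 48 h. PAX8, a kidney lineage factor, fell at 12 h (10.52 in Ra and 10.97 in control cells, adjusted p = 0.0104), while KRT8 and KRT18 differed by 0.11 and 0.04 there; the part of these differences in the results above was not tested.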

How the data were processed

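The deposited log2 values were made by the authors with GCRMA, per the submitters' processing notes, which corrects background, normalizes arrays and summarises probe sets; of its version, the arrays normalized together and any filter, nothing is given in the sources used here. The log2 scale was read from the range of the deposited values. For arrays, their number limits the precision. GCRMA shrinks low signals, so differences near 5 log2 units depend on its background model.

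Of 54675 probe sets, 41097 had 1 gene symbol in the platform annotation, 1801 had several and 11777 were unnamed; Entrez numbers of 41043 matched RefSeq, which changed 0 symbols. Each gene was represented by its probe set of highest mean over 12 arrays, and genes with at least 3 arrays at 5 log2 units were tested (10049 of 19775). No 2 arrays held identical values (0 pairs). With limma 3.58.1 in R 4.3.3, 4 group means were fitted over all 12 arrays (8 residual degrees of freedom) with 1 variance weight per group and an intensity trend, and p-values were adjusted by Benjamini-Hochberg over all genes at 0.05. The weights were 2.58 for Ra 12 h, 2.44 for control 12 h, 0.210 for Ra 48 h and 0.757 for control 48 h; they were used because a single spread for all groups overstates the precision at 48 h and understates it at 12 h. The code was tested on simulated data.

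Pairing by replicate number was checked by correlating the deviations of arrays from their group means. At 12 h same-numbered Ra and control arrays had correlations of 0.184, 0.421 and 0.347, so by a rule of over 0.1 in every pair the numbers were taken as pairs. All differently numbered ones were below 0. The deviations of a group sum to 0, so positive values within pairs push the others below 0, and their sign is no separate evidence. At 48 h they were 0.301, -0.219 and 0.097, and between control groups 0.025, -0.023 and 0.066, so no pairs were taken. The blocked fit used for 12 h still held all 12 arrays, with the 48 h arrays blocked by number.

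The genes, lists and tests were chosen with earlier results of these data known. Values on every array are given for the regulators, for genes past the test in a Ra comparison and for the 3 largest differences of each branch at each time; further genes, such as HMGCS1 and TM7SF2, were chosen after their values were seen. Alternatives were 1 spread for all groups, fits on 6 arrays, other filters, other probe set rules, quantile normalization, centring, the replicate block and leaving out each array. Figures were drawn with matplotlib 3.10.9.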

Additional observations from a re-analysis of the deposited data

How the results depend on the processing

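The counts depended on how the spread was modelled. With 1 spread for all groups, 3 genes passed at 12 h (0 of the 30), 1262 at 48 h (2 of the 30), 2 for the difference of effects and 1955 for control cells over time (3 of the 30). At 12 h, 840 genes passed with no filter and 1192 without cross-hybridising probe set types, and 0 of the 30 passed in either or with probe sets averaged per gene. At 48 h, 2 genes passed without those probe set types, 1316 after quantile normalization and 1109 with centred arrays (1 of the 30, HSD17B7, in each of the last). For the difference of effects 0 genes passed with no filter, 13 with a filter at 7 log2 units, 1042 after quantile normalization and 923 with centred arrays (1 of the 30 in each of the last). Quantile normalization moved the median of all genes at 48 h by 0.21 and centring by 0.25; the sterol median was then -0.46 and -0.39, and the fatty acid median -0.07 and 0.00.

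With the replicate block, 6 of the 30 genes and 2684 of all genes passed at 12 h. In the blocked fit of the 6 arrays of 12 h alone, 4 of the 30 and 2354 of all genes passed. That fit was an alternative added after the data were seen. Where the numbers were not taken as pairs, the block gave 175 genes at 48 h (1 of the 30) and 131 in the fit of the 6 arrays. It gave 280 genes for the difference of effects (1 of the 30) and 4036 for control cells over time (9 of the 30).

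Leaving out each array in turn gave 740 to 2264 genes at 12 h (0 to 4 of the 30), 0 to 726 at 48 h (0 to 1), 0 to 754 for the difference of effects (0 to 1) and 1460 to 4378 for control cells over time (1 to 9). The lowest count at 12 h came without Ra 12 h replicate 2 and the highest without Ra 12 h replicate 3. The sterol median lay between -0.80 and -0.45 at 48 h and between -0.25 and 0.10 at 12 h, and the fatty acid median between -0.41 and -0.08 at 48 h and between -0.18 and 0.28 at 12 h. No call for 1 of the 30 genes changed direction under any alternative run.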
